A study of Mus musculus with 24 samples.

Results

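The late step of the culture of wild-type alveolar epithelial cells (AECs) was taken from 6 of the 24 libraries of a mouse bulk RNA-seq series, namely the 3 Krt8+/+ libraries of day 7 and the 3 Krt8+/+ libraries of day 3. The members were chosen by genotype and day as the labels give them, and every gene of the count table was considered. Type 2 AECs (AEC2s) were isolated from Krt8+/+ mice, plated on rigid, laminin-coated 2D surfaces, and lysed at day 3 or day 7. The labels carry 3 dates without saying what was done on them. Each date was taken here as 1 isolation, so each isolation gave a pair of libraries. The freshly isolated cells (day 0), the day 1 cultures and the same 4 time points of AECs from mice that lack Krt8 in every tissue (Krt8-/-) complete the series and are used below for comparison. Strain, age and the number of mice per isolation were not stated in the labels or the methods read here, and the 2D system yields cells that resemble type 1 AECs (AEC1s) without being identical to them. Because each library was a whole culture, fewer cells of a type and less RNA per cell cannot be told apart.

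AEC2s are the cuboidal cells that make surfactant and serve as the progenitors of the alveolar epithelium, whereas AEC1s are the thin, flat cells across which gas is exchanged. After injury, AEC2s lose surfactant genes, pass through a transitional state rich in keratins, and flatten into AEC1s. Cells that spread on a rigid surface also build actin stress fibers and adhesions, and the genes of that apparatus respond to serum response factor (SRF) with its actin-sensing coactivators (MRTFs) and to the YAP and TEAD regulators. By day 3 these cultures had already left the AEC2 state, and the comparison with day 7 asks what still changed.

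Total counts ranged from 12749753 to 14729425 at day 3 and from 11699243 to 14323772 at day 7, and between 20481 and 22365 genes had at least 1 count in each library. The epithelial genes Epcam (226 to 361 CPM, read counts scaled to a common library size, at day 3 and 137 to 299 CPM at day 7) and Cdh1, which encodes E-cadherin (723 to 1280 and 607 to 890 CPM), were present in all 6 libraries. Krt8, the gene deleted in the Krt8-/- mice, lay between 2600 and 5090 CPM in these 6 libraries and between 26.2 and 34.7 CPM in the 6 Krt8-/- libraries of the same days. Xist and Y-linked genes put the day 3 and day 7 libraries of each isolation together, with Xist detected in isolations 1 and 2 and Y-linked genes in isolation 3, so sex and isolation cannot be told apart. The 10 endothelial markers summed to 12.7 to 24.7 CPM at day 3 and to 5.31 to 5.92 CPM at day 7, with Pecam1 and Emcn at 0 counts in all 6 libraries, and the 9 lymphocyte markers summed to at most 0.656 CPM. Macrophage, mesothelial and airway markers were present, and their levels are given beside the results they touch.

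Of 18046 genes tested, 562 (3.11%) were higher and 626 (3.47%) were lower at day 7 than at day 3 at a Benjamini-Hochberg adjusted p under 0.05 in edgeR's quasi-likelihood test, 6.58% in either direction. Among these, 275 rose and 483 fell by more than 2-fold, and 560 of the rises and 625 of the falls had the same direction in each of the 3 isolations. The median log2 fold change over all genes was -0.0102, and 48.4% of genes lay above 0. For comparison, 2600 genes (14.4%) rose and 2140 (11.9%) fell between day 1 and day 3, a step that shares the day 3 libraries. The number of calls at day 7 against day 3 depended on the number of isolations: 534 genes passed without isolation 1, 325 without isolation 2 and 572 without isolation 3.

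AEC1 genes moved apart. The study had shown scores of its AEC1 and AEC2 markers for these cultures, so those lists are not independent evidence of a direction. Of the 10 AEC1 markers that the study used, 3 rose, against 3.11% of all genes, none fell and 7 did not pass the test. The list's median log2 fold change was 0.47. The largest rise was that of Igfbp2 (chr1:72824503-72852474, plus strand, GRCm38), an insulin-like growth factor (IGF) binding protein that marks mature AEC1s. Igfbp2 lay at 3.15, 3.05 and 3.57 CPM in the day 3 libraries of isolations 1, 2 and 3, and at 111, 240 and 265 CPM at day 7. The groups did not overlap, and the log2 fold change was 5.97 ± 0.58 (SE, n = 3 isolations, edgeR adjusted p = 4.94e-06). At day 0 and day 1, its mean had been 7.90 and 2.14 CPM, so the high values were those of day 7. Spock2, a testican proteoglycan, went from 1.18, 2.40 and 2.84 CPM to 14.2, 25.8 and 27.9 CPM, again without overlap, and its log2 fold change was 3.39 ± 0.54 (edgeR adjusted p = 0.000487). Pxdc1 rose 1.93-fold (log2 fold change 0.95 ± 0.23, edgeR adjusted p = 0.0141). Leaving out isolation 1 ended the call of Pxdc1 (edgeR adjusted p = 0.0638). Without isolation 2 the test was no longer passed by Pxdc1 (edgeR adjusted p = 0.214).

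The other members of that list did not pass the test. Hopx, a homeodomain-only protein of AEC1s, was at 112, 158 and 181 CPM at day 3 and at 138, 154 and 177 CPM at day 7 (edgeR adjusted p = 0.932). Pdpn, which encodes podoplanin, was at 106, 72.6 and 74.9 CPM and then at 60.7, 73.1 and 112 CPM (edgeR adjusted p = 0.974). Each of these groups overlapped the other. Akap5, Rtkn2, Cryab, Ier3 and Timp2 had log2 fold changes between 0.26 and 0.60, and Cryab and Timp2 lay above their day 3 values in all 3 day 7 libraries without passing the test. Several members had moved earlier: Hopx, Rtkn2, Akap5 and Timp2 rose between day 1 and day 3, with log2 fold changes of 1.29, 5.19, 2.76 and 1.15.

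Of 16 further AEC1 genes from textbook knowledge, 1 rose and 7 fell, against 3.11% and 3.47% of all genes. The list's median log2 fold change was -0.39. Col4a4, a basement membrane collagen chain made by AEC1s, rose from 38.6, 70.8 and 87.1 CPM to 106, 143 and 157 CPM (log2 fold change 1.05 ± 0.26, edgeR adjusted p = 0.0153). Sec14l3 fell from 83.8, 94.5 and 115 CPM to 7.42, 6.39 and 10.3 CPM, a log2 fold change of -3.60 ± 0.40 (edgeR adjusted p = 2.13e-05). Lmo7, which links actin to junctions, fell from 591, 946 and 850 CPM to 316, 246 and 229 CPM (log2 fold change -1.59 ± 0.21, edgeR adjusted p = 8.71e-05). Clic5, an intracellular chloride channel protein, fell 2.61-fold, Ndnf fell 2.23-fold and Cyp2b10, a cytochrome P450, fell 5.35-fold. Aqp5, the apical water channel of AEC1s, fell 1.99-fold, but its groups overlapped (126, 235 and 251 CPM against 87.3, 76.1 and 143 CPM). The Aqp5 call (edgeR adjusted p = 0.0224) was lost with any of the 3 isolations left out, where its adjusted p ranged from 0.0514 to 0.412. Ager, the receptor RAGE that is abundant in AEC1s, was at 380, 679 and 977 CPM at day 3 and at 741, 861 and 1350 CPM at day 7, with overlapping groups (edgeR adjusted p = 0.527). The fit that left out isolation 2 made no call for Clic5, Col4a4 and Ndnf (edgeR adjusted p = 0.118, 0.161 and 0.238). No call remained without isolation 3 for Col4a4 and Ndnf (edgeR adjusted p = 0.0814 and 0.0545). Several of the genes that fell had been higher in the freshly isolated cells than at day 3, with means at day 0 and day 3 of 1386 and 97.7 CPM for Sec14l3, 248 and 93.3 CPM for Cyp2b10 and 699 and 204 CPM for Aqp5. Lmo7, Clic5 and Ndnf had been lower at day 0 than at day 3, with day 0 means of 254, 114 and 97.6 CPM. The plot of alveolar markers shows the spread of these changes around 0.

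**Figure D1:**
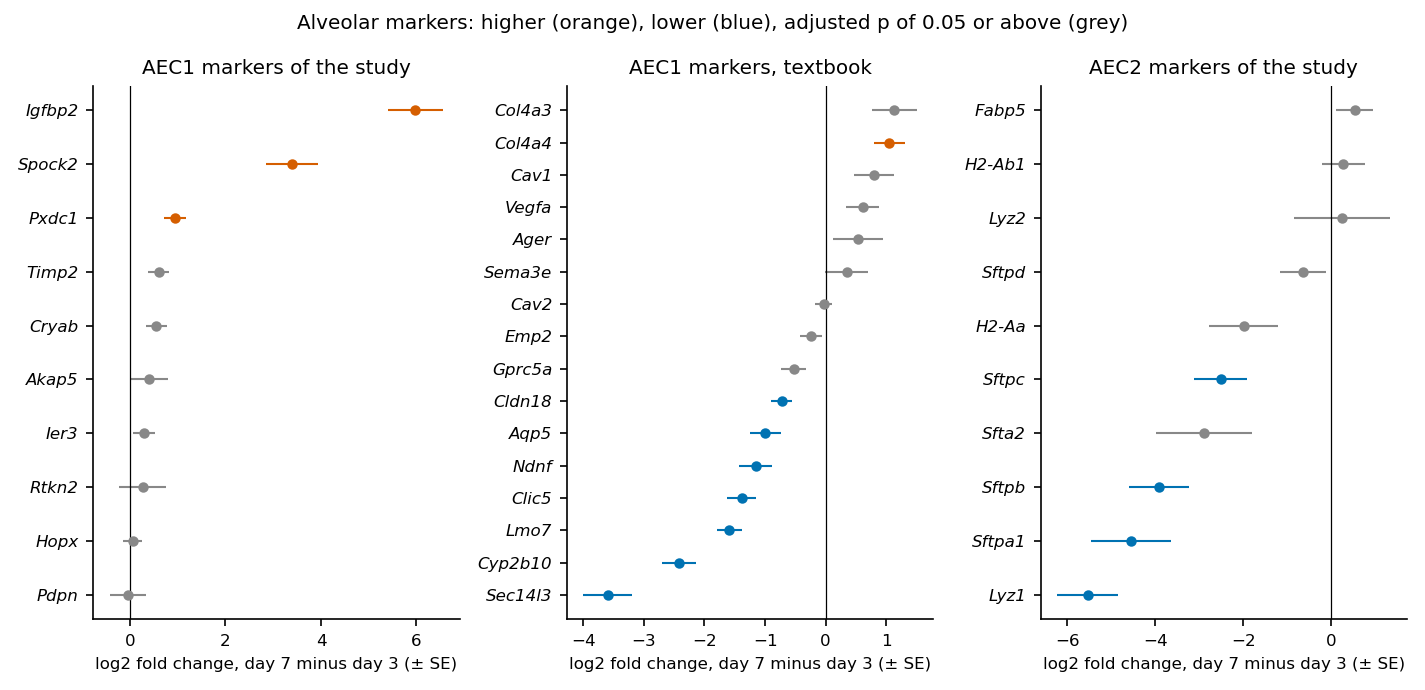
Log2 fold change of each marker between day 3 and day 7 in Krt8+/+ AECs, with its SE (3 isolations per day). Orange points were higher, blue points lower, and grey points did not pass an adjusted p of 0.05. Igfbp2 and Spock2 stand to the right of the other AEC1 markers of the study, 7 of the textbook AEC1 genes are lower, and 4 AEC2 genes are lower.

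Some AEC2 genes fell further. The summed level of the study's AEC2 list, which includes Lyz2, went from 2860, 927 and 1460 CPM to 3230, 977 and 225 CPM, so it fell only in isolation 3. Of the study's 10 AEC2 markers 4 fell, against 3.47% of all genes, none rose and 6 did not pass. The list's median log2 fold change was -2.25. Sftpc, which encodes surfactant protein C, fell from 287, 119 and 430 CPM to 46.8, 32.2 and 67.4 CPM without overlap (log2 fold change -2.51 ± 0.59, edgeR adjusted p = 0.0115). These values follow a mean of 186650 CPM at day 0, which puts the day 3 cells already far below their origin. Sftpa1 (log2 fold change -4.55 ± 0.91), Sftpb (-3.90 ± 0.68) and Lyz1 (-5.53 ± 0.69) fell as well, each without overlap. Lyz2, a lysozyme that AEC2s share with macrophages, was at 2250, 551 and 454 CPM at day 3 and at 3020, 839 and 15.5 CPM at day 7. The 14 macrophage markers summed to 276, 106 and 45.4 CPM at day 3 and to 312, 105 and 16.3 CPM at day 7 in the same order of isolations as Lyz2, and the part of macrophage RNA in the Lyz2 values was not tested. None of the 14 macrophage markers passed the test, against 3.11% of all genes that rose and 3.47% that fell. Of 15 textbook AEC2 genes, 4 fell, against 3.47% of all genes, none rose and 11 did not pass. Nkx2-1, the lung epithelial transcription factor, was among those that fell, from 98.1, 150 and 166 CPM to 57.2, 65.3 and 76.1 CPM (log2 fold change -1.06 ± 0.20, edgeR adjusted p = 0.00194). Dropping isolation 1 removed the call of Sftpa1 and Sftpc (edgeR adjusted p = 0.0684 and 0.173). With isolation 2 set aside, the threshold was missed by Nkx2-1 (edgeR adjusted p = 0.136). In the absence of isolation 3, no call was made for Sftpa1, Sftpb and Sftpc (edgeR adjusted p = 0.122, 0.0612 and 0.141).

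Few keratins and other transitional markers passed the test. Against 3.11% of all genes, 1 of the study's 9 transitional markers rose, and none fell. The study showed these and the basaloid markers for these cultures, so the lists are not independent evidence of a direction. Krt18, the type I keratin that pairs with keratin 8, went from 1410, 2050 and 1750 CPM to 3350, 4230 and 2260 CPM, a log2 fold change of 0.92 ± 0.23 (edgeR adjusted p = 0.0196). This call was lost without isolation 1 (edgeR adjusted p = 0.309) and without isolation 2 (edgeR adjusted p = 0.23). Krt8 itself was at 2600, 3870 and 3340 CPM and then at 4040, 5090 and 2960 CPM, with overlap (log2 fold change 0.30 ± 0.21, edgeR adjusted p = 0.483). Krt7 had a log2 fold change of 0.67 ± 0.23 that passed with the isolation as a block (edgeR adjusted p = 0.0951 without and 0.0379 with it) and in DESeq2 (adjusted p = 0.0477). Krt19, Anxa1 (adjusted p = 0.0366 in DESeq2), Itgb6, Cldn4, Sfn and Trp53 did not pass the edgeR test, with log2 fold changes from -0.60 for Itgb6 to 0.55 for Anxa1. In isolation 3, Krt8 and Krt19 were lower at day 7 than at day 3, whereas in isolation 1 both were higher.

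The basaloid list used here holds 14 of the markers that the study assigned to that state and is shorter than the study's own. Of its 13 tested members 2 rose and 1 fell, against 3.11% and 3.47% of all genes. Krt17, a keratin of stressed and basal-like epithelium, rose from 11.4, 22.9 and 11.3 CPM to 43.7, 150 and 23.0 CPM. The day 7 values spread widely, and the lowest lay just above the highest day 3 value (log2 fold change 2.25 ± 0.63, edgeR adjusted p = 0.0346), and the call was lost without isolation 1 (edgeR adjusted p = 0.237) and without isolation 2 (edgeR adjusted p = 0.336). Tpm1, a tropomyosin, rose from 2050, 2090 and 2020 CPM to 3760, 5410 and 4130 CPM (log2 fold change 1.11 ± 0.16, edgeR adjusted p = 0.000212). Zfp36l1, an RNA-binding decay factor, fell 1.78-fold. If isolation 2 was omitted, the call was lost for Zfp36l1 (edgeR adjusted p = 0.0508). Tpm4 had a log2 fold change of 0.38 ± 0.12 and passed with the isolation as a block (edgeR adjusted p = 0.068 without and 0.0484 with it) and in DESeq2 (adjusted p = 0.00892). The remaining members, Palld, Sfn, Plau, Ier3, Cdh3, Lamb3, Atf3, Sox4 and Phlda2, did not pass, and S100a2 had 2 counts at day 3 and 4 at day 7 and was not tested. Of the 6 basal cell markers none passed, against 3.11% of all genes that rose and 3.47% that fell, so 0 calls in 6 genes is near those shares. Their log2 fold changes lay above 0 for 3 and below 0 for 3. Of the 6, 2 lay above without overlap, against 14.8% of all genes. The defining basal genes Krt5 and Trp63 had 4 and 0 counts at day 7. Ngfr, another of the 6, had 3 counts at day 3 and 39 at day 7. Its ratio was 15, with a counting interval of 4.77 to 75.9 (exact binomial, counting error only).

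Many contractile genes rose. Of 32 contractile and actin-binding genes, 14 rose, against 3.11% of all genes, and none fell. The median log2 fold change was 0.56, 28 of the 32 lay above 0, and 22 did not overlap between the days, against 14.8% of all genes that lay above without overlap. The call count was 10 without isolation 1, 7 without isolation 2 and 9 without isolation 3. The fit of the 6 compared libraries alone made 13 calls, which held 12 of the 14 and left out Myl12a (edgeR adjusted p = 0.0573) and Csrp1 (edgeR adjusted p = 0.0734), both named after their values were seen. The members with the largest rises encode parts of the smooth muscle type of actin and myosin apparatus and proteins bound to it.

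Cnn1 (chr9:22099216-22109630, plus strand, GRCm38) encodes calponin, an actin-binding regulator of contraction. It rose from 29.1, 30.9 and 26.6 CPM to 259, 505 and 375 CPM, a log2 fold change of 3.72 ± 0.32 (edgeR adjusted p = 1.5e-06). Acta2 (chr19:34241090-34255590, minus strand, GRCm38), the α-smooth muscle actin gene, rose from 518, 413 and 331 CPM to 987, 2120 and 1920 CPM. The groups were apart, with isolation 1 the highest at day 3 and the lowest at day 7, and the log2 fold change was 2.00 ± 0.44 (edgeR adjusted p = 0.00664, and 0.167 without isolation 2). Myl9, the regulatory myosin light chain, rose from 83.8, 124 and 97.0 CPM to 472, 795 and 644 CPM (log2 fold change 2.65 ± 0.37, edgeR adjusted p = 0.000176). Tpm2, a tropomyosin, rose from 220, 252 and 248 CPM to 797, 1330 and 1030 CPM (log2 fold change 2.13 ± 0.33, edgeR adjusted p = 0.000357). In isolation 2, each of Cnn1, Acta2, Myl9 and Tpm2 reached its highest day 7 value.

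Lower in abundance, Lmod1 (leiomodin, an actin nucleator of smooth muscle) rose from 0.853, 1.43 and 1.82 CPM to 12.6, 31.4 and 24.9 CPM, a log2 fold change of 4.06 ± 0.54 (edgeR adjusted p = 0.00013). Myh11, the smooth muscle myosin heavy chain, rose from 10.3, 5.90 and 6.01 CPM to 33.5, 88.7 and 60.8 CPM (log2 fold change 3.04 ± 0.76, edgeR adjusted p = 0.0175, lost without isolation 2 at 0.329 and without isolation 3 at 0.0606). Synpo2 (synaptopodin 2), an actin-bundling protein, rose 7.38-fold. The other called members, named after their values were seen, were Tagln (transgelin, from 491, 304 and 301 CPM to 963, 1510 and 1420 CPM), Cald1, Cnn2, Cnn3, Myl12a and Csrp1, with Tpm1 as given above. Leaving out isolation 1 ended the call of Cnn2, Cnn3, Csrp1 and Myl12a (edgeR adjusted p = 0.0693, 0.129, 0.272 and 0.272). Without isolation 2 the test was no longer passed by Cnn2, Cnn3, Csrp1, Myl12a and Tagln (edgeR adjusted p = 0.111, 0.313, 0.404, 0.365 and 0.0691). The fit that left out isolation 3 made no call for Cnn2, Cnn3, Myl12a and Tagln (edgeR adjusted p = 0.11, 0.0828, 0.138 and 0.0632). Acta1, the skeletal muscle actin, was not in the list and was among the 12 largest rises of called genes with a mean of at least 5 CPM, from 25.0, 36.2 and 27.6 CPM to 448, 1190 and 673 CPM (log2 fold change 4.70 ± 0.49, edgeR adjusted p = 1.2e-05). Acta1 and Acta2 are related actin genes, so the split of reads between them may depend on how the counts were made, which was not tested.

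Markers of smooth muscle and pericytes summed to 173, 132 and 123 CPM at day 3 and to 433, 742 and 698 CPM at day 7. Cnn1 made up 29.1, 30.9 and 26.6 CPM of the day 3 sums and 259, 505 and 375 CPM of the day 7 sums. Myh11 made up a further 33.5, 88.7 and 60.8 CPM at day 7. The rise of the sum is therefore not separate from the contractile result. Of the 10 genes in that list 8 were tested and 3 rose, against 3.11% of all genes (Cnn1, Myh11 and Lmod1, which the contractile list also holds). The pericyte genes Rgs5 and Higd1b had 6 and 0 counts at day 3 and 4 and 0 at day 7, whereas Des, Cspg4 and Pdgfrb were detected at 17.7 to 57.2 CPM at day 3 and at 17.8 to 102 CPM at day 7 without passing the test. Fibroblast markers summed to 228 to 371 CPM at day 3 and to 170 to 215 CPM at day 7. Of 16 members 1 fell, against 3.47% of all genes. It was Dcn (decorin), from 70.5, 54.6 and 50.9 CPM to 26.6, 19.3 and 9.68 CPM. No call remained without isolation 2 for Dcn (edgeR adjusted p = 0.141). The part of mesenchymal cells in the contractile rise was not tested.

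**Figure D2:**
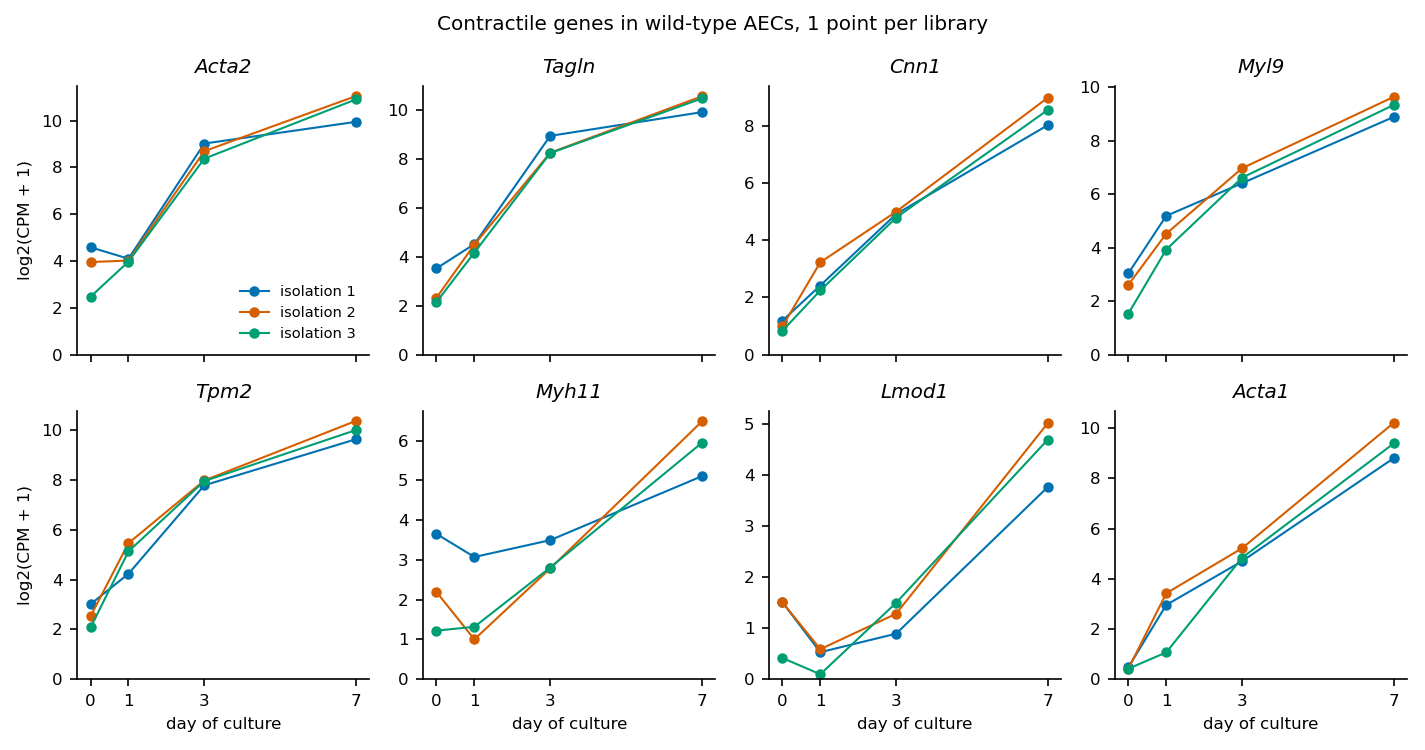
Levels of 8 contractile genes in the 12 wild-type libraries, as log2(CPM + 1) against the day of culture, with 1 line per isolation. In each panel all 3 day 7 points lie above all 3 day 3 points, and Lmod1 and Myh11 rise mainly after day 3.

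Promoters of 4 called contractile genes, chosen for holding a motif marked below, are printed. They run from 250 bases before to 50 bases after the RefSeq transcription start (GRCm38.p6). The called genes Cnn1, Tpm2, Synpo2, Cnn3 and Csrp1 held neither motif in this window. Capitals mark a CArG box, the site that SRF is known to bind, or GGAATG, the core that TEAD factors are known to bind, on either strand. Only the strict CArG consensus (CC, then A or T alone, then GG) was searched. Variants with another base inside, such as ccctatatgg and ccttgtttgg in Acta2, stay in lower case, so an unmarked promoter may still hold an SRF site.
Acta2, chr19:34255324-34255623, minus strand: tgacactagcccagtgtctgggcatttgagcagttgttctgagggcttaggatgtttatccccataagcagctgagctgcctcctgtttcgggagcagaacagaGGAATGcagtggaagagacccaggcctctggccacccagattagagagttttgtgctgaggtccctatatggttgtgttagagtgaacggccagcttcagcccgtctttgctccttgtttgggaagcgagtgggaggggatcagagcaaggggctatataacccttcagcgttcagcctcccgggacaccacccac
Lmod1, chr1:135324563-135324862, plus strand: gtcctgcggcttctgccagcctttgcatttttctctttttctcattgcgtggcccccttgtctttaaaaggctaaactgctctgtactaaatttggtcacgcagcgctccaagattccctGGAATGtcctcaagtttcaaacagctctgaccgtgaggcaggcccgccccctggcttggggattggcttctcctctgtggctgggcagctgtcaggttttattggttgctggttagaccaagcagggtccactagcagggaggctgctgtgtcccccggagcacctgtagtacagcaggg
Myl9, chr2:156775214-156775513, plus strand: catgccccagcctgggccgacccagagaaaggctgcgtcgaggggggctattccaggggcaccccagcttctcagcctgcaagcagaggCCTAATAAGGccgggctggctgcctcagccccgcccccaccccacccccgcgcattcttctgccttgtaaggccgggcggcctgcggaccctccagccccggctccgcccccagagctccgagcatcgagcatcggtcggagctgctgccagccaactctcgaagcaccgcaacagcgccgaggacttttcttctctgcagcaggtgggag
Cnn2, chr10:79988350-79988649, plus strand: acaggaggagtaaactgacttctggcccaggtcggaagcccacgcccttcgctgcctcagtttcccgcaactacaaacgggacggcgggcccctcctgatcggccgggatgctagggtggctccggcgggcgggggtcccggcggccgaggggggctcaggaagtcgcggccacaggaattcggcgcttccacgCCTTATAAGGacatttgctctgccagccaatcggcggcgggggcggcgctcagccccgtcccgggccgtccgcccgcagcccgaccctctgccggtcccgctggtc
The GGAATG match begins 146 bases before the start in Acta2 and 130 bases before it in Lmod1, and the CArG match begins 161 bases before the start in Myl9 and 56 bases before it in Cnn2. Of the 32 list members 26 had a promoter in the table. A strict CArG box was present in 4 of them (15.4%, against 1.81% of 27025 genes with a promoter), and GGAATG in 12 (46.2%, against 16.6%). Among the 12 called members with a promoter, 2 held a CArG box and 5 held GGAATG. These matches describe letters in a short window and were not tested.

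Several adhesion genes rose as well. Of 28 focal adhesion and LIM adaptor genes, 8 rose, against 3.11% of all genes, and none fell, with a median log2 fold change of 0.48. Ilk, the integrin-linked kinase that forms a scaffold at adhesions, rose from 371, 382 and 368 CPM to 607, 750 and 579 CPM (log2 fold change 0.79 ± 0.16, edgeR adjusted p = 0.00366). Lims2, a binding partner of that kinase, rose 3.47-fold, and Fhl2, a LIM-only coactivator, rose from 67.0, 69.3 and 65.2 CPM to 152, 157 and 127 CPM (2.17-fold). Fblim1 (migfilin), Pdlim3 and Pdlim5 rose 2.02-, 3.74- and 1.74-fold. These 6 genes were named as called members with the same direction in 3 isolations, so their lack of overlap is not separate evidence. Over the whole list 13 of 28 genes lay above without overlap, against 14.8% of all genes. Dropping isolation 1 removed the call of Fblim1, Ilk, Pdlim3 and Pdlim5 (edgeR adjusted p = 0.152, 0.0638, 0.0688 and 0.111). With isolation 2 set aside, the threshold was missed by Fblim1, Fhl2, Lims2 and Pdlim3 (edgeR adjusted p = 0.252, 0.0507, 0.0701 and 0.275). In the absence of isolation 3, no call was made for Fblim1, Fhl2, Ilk, Lims2 and Pdlim5 (edgeR adjusted p = 0.0681, 0.0986, 0.0583, 0.0945 and 0.0677).

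Of 17 integrin genes 4 rose, against 3.11% of all genes, and none fell. Itgb1, the β1 chain shared by collagen and laminin receptors, rose from 1710, 1750 and 1380 CPM to 2120, 2880 and 2750 CPM (log2 fold change 0.68 ± 0.16, edgeR adjusted p = 0.00924). Itgb3, the β3 chain, rose from 56, 62.0 and 52.9 CPM to 126, 199 and 159 CPM (log2 fold change 1.5 ± 0.27, edgeR adjusted p = 0.00165). Itga3, the α chain of a laminin receptor, rose 2.27-fold, and Itga1, the α chain of a collagen receptor, rose 5.10-fold from 1.90 to 3.63 CPM at day 3. Itgb6, whose product activates latent TGF-β, was at 381, 647 and 480 CPM and then at 312, 364 and 322 CPM, below without overlap but not past the threshold (log2 fold change -0.60 ± 0.22, edgeR adjusted p = 0.127). If isolation 1 was omitted, the call was lost for Itga1 and Itga3 (edgeR adjusted p = 0.0881 and 0.221). Leaving out isolation 2 ended the call of Itga1 and Itgb1 (edgeR adjusted p = 0.102 and 0.149). Without isolation 3 the test was no longer passed by Itga1 and Itgb1 (edgeR adjusted p = 0.12 and 0.202).

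Of 17 genes of the SRF, MRTF and YAP group 4 rose, again against 3.11% of all genes, and none fell. Ankrd1, a cardiac ankyrin repeat protein and a common readout of YAP, rose from 372, 338 and 284 CPM to 999, 1230 and 1020 CPM (log2 fold change 1.71 ± 0.29, edgeR adjusted p = 0.000878). Nuak2, a kinase, and Amotl1, an angiomotin, rose 2.08- and 1.85-fold. Tead1, a DNA-binding partner of YAP, rose 1.79-fold with an adjusted p of 0.0382 in edgeR, and this call was lost without any of the 3 isolations (adjusted p from 0.0775 to 0.332). The fit that left out isolation 1 made no call for Amotl1 and Nuak2 (edgeR adjusted p = 0.279 and 0.0556). No call remained without isolation 2 for Amotl1 (edgeR adjusted p = 0.0916). Dropping isolation 3 removed the call of Amotl1 and Ankrd1 (edgeR adjusted p = 0.0734 and 0.0512).

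The fibrillar collagens showed no call. None of 26 genes for fibrillar collagens and their processing passed the test, against 3.11% of all genes that rose and 3.47% that fell. In a list of this size, 0 calls is near those shares. The median log2 fold change was 0.37, with 19 genes above 0 and 7 below. Without overlap, 8 of the 26 lay above and 1 below, against 14.8% and 13.7% of all genes. At an unadjusted p under 0.05 there were 6, and DESeq2 called 1, which was lower. Between day 1 and day 3, 20 of the same 26 had risen, against 14.4% of all genes. Col1a1 (chr11:94936224-94953042, plus strand, GRCm38), the α1 chain of type I collagen, was at 700, 501 and 374 CPM at day 3 and at 375, 431 and 760 CPM at day 7. The order of the isolations was turned around between the days, and the log2 fold change was -0.01 ± 0.52 (edgeR adjusted p = 1). The summed level of the list went from 4170 to 3580 CPM in isolation 1, from 3570 to 4630 CPM in isolation 2 and from 3110 to 7000 CPM in isolation 3. The list's median was -0.06 without isolation 3 and 0.64 without isolation 1, so its sign rested on isolation 3. Fn1, which encodes fibronectin, was at 2270, 5160 and 3310 CPM and then at 4070, 7100 and 4510 CPM, higher in 3 of 3 isolations with overlapping groups (log2 fold change 0.55 ± 0.55, edgeR adjusted p = 0.661).

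In the other matrix lists few genes passed the test. Of 26 matricellular and glycoprotein genes 2 rose and 1 fell, against 3.11% and 3.47% of all genes. The list's median log2 fold change was 0.52, with 17 genes above 0 and 9 below. Without overlap, 9 of the 26 lay above and 2 below, against 14.8% and 13.7% of all genes. The list's sum went from 13300, 15900 and 12000 CPM to 18600, 23300 and 22500 CPM. Fbln5 (fibulin 5), an elastic fiber protein, rose from 94.7, 150 and 155 CPM to 304, 493 and 649 CPM (log2 fold change 1.85 ± 0.35, edgeR adjusted p = 0.00238). Grem1 (gremlin 1), a secreted antagonist of bone morphogenetic proteins, rose from 55.2, 30.7 and 29.0 CPM to 167, 118 and 205 CPM, a 4.26-fold change with an edgeR adjusted p of 0.0399 that was lost with any isolation left out (0.0941 to 0.152) and in DESeq2 (0.1). Dcn fell, as given above. Of 21 basement membrane genes 2 rose, against 3.11% of all genes: Col18a1 (type XVIII collagen, 4.04-fold) and Hspg2 (perlecan, 2.26-fold). Of 25 proteases and inhibitors 2 rose and 2 fell, against 3.11% and 3.47% of all genes. Adamts5 (an aggrecan-cleaving protease, 4.14-fold) and Timp3 (a metalloproteinase inhibitor, 1.95-fold) rose, and Mmp3 (stromelysin 1) and Mmp15 (a membrane-type metalloproteinase) fell 7.42- and 4.76-fold. With isolation 1 set aside, the threshold was missed by Adamts5 and Mmp3 (edgeR adjusted p = 0.057 and 0.095). In the absence of isolation 2, no call was made for Adamts5, Col18a1, Dcn, Hspg2, Mmp3 and Timp3 (edgeR adjusted p = 0.072, 0.105, 0.141, 0.205, 0.403 and 0.272). If isolation 3 was omitted, the call was lost for Fbln5, Hspg2 and Timp3 (edgeR adjusted p = 0.0625, 0.208 and 0.323). The plot of all lists sets these groups side by side.

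**Figure D3:**
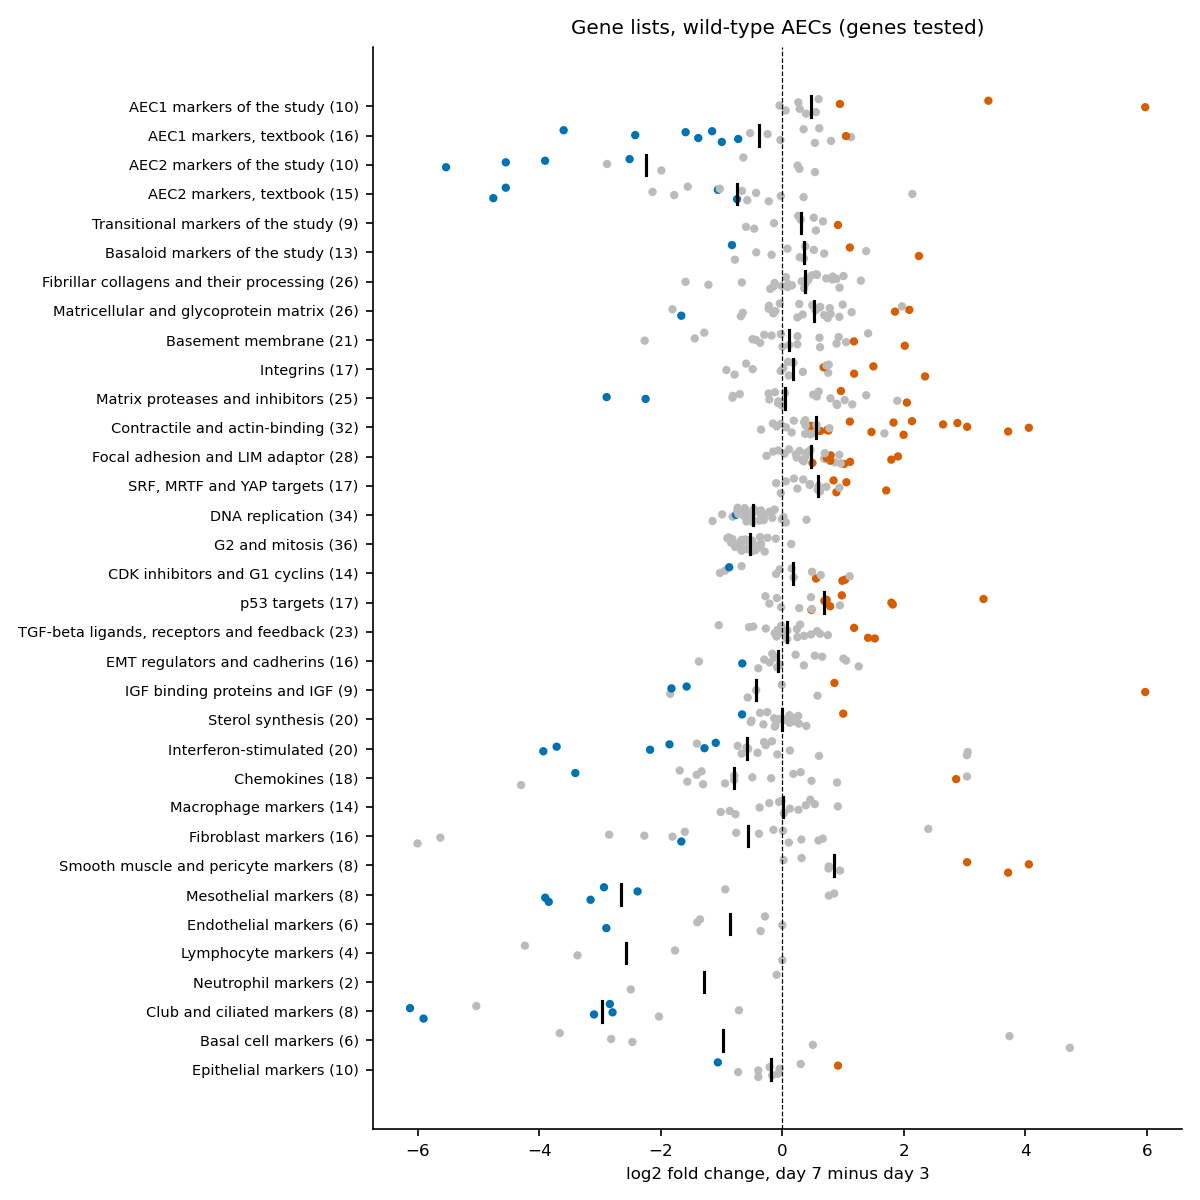
Log2 fold change of every tested member of the 34 gene lists between day 3 and day 7 in Krt8+/+ AECs (3 isolations per day). Orange points were higher and blue points lower at an adjusted p under 0.05, the black bar is the list's median, and the dashed line is the median of all 18046 genes (-0.0102). The contractile and p53 lists hold only orange and grey points, and the DNA replication and mitosis lists cluster to the left of 0 with 1 blue point between them.

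Most DNA replication and mitosis genes had log2 fold changes below 0, 1 of them passed the test, and the summed levels fell in isolations 1 and 2 and not in isolation 3. Of 34 DNA replication genes 31 had a log2 fold change below 0, with a median of -0.49, and 1 fell past the threshold, against 3.47% of all genes, and 11 had an unadjusted p under 0.05. With the isolation as a block 2 passed, and with DESeq2 4 passed. The called gene was Mcm4, a subunit of the replicative helicase, at 154, 145 and 99.0 CPM and then at 88.8, 58.1 and 87.8 CPM (log2 fold change -0.76 ± 0.22, edgeR adjusted p = 0.0392), and it was lost without isolation 1 (0.31) and without isolation 2 (0.326). Of 36 G2 and mitosis genes 35 lay below 0, with a median of -0.54, and none passed, with 4 at an unadjusted p under 0.05 and none called by DESeq2. Mki67, the proliferation antigen Ki-67, was at 59.4, 48.9 and 35.9 CPM and then at 41.7, 19.8 and 38.0 CPM, lower in isolations 1 and 2 and higher in isolation 3 (log2 fold change -0.53 ± 0.41, edgeR adjusted p = 0.531).

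The sum over the mitosis list fell from 1950 to 1340 CPM in isolation 1 and from 1700 to 777 CPM in isolation 2, and went from 1340 to 1350 CPM in isolation 3. The median was -0.31 without isolation 2 and -0.82 without isolation 3, and in the latter case 1 gene passed. Between day 1 and day 3, 35 of the 36 mitosis genes and 21 of the 34 replication genes had risen, against 14.4% of all genes. At day 7 the mitosis sums were still 777 to 1350 CPM against 150 to 258 CPM at day 1. The promoter of Mki67 is printed to show the letters shared by the mitosis genes, with TTTGAA (the cell cycle genes homology region, CHR) and CCAAT in capitals.
Mki67, chr7:135716330-135716629, minus strand, GRCm38.p6: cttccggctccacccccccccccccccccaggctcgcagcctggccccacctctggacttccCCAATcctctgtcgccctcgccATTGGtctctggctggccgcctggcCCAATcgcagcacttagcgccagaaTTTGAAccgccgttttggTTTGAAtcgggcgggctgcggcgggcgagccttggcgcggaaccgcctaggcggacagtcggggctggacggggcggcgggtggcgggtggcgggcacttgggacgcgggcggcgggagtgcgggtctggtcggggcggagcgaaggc
It held 2 CHR and 3 CCAAT matches. CHR was found in 20 of the 30 mitosis genes with a promoter (66.7%, against 20.2% of all genes with a promoter) and CCAAT in 24 (80%, against 41.1%), whereas among 26 replication genes CHR was found in 5 (19.2%) and CCAAT in 16 (61.5%).

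**Figure D4:**
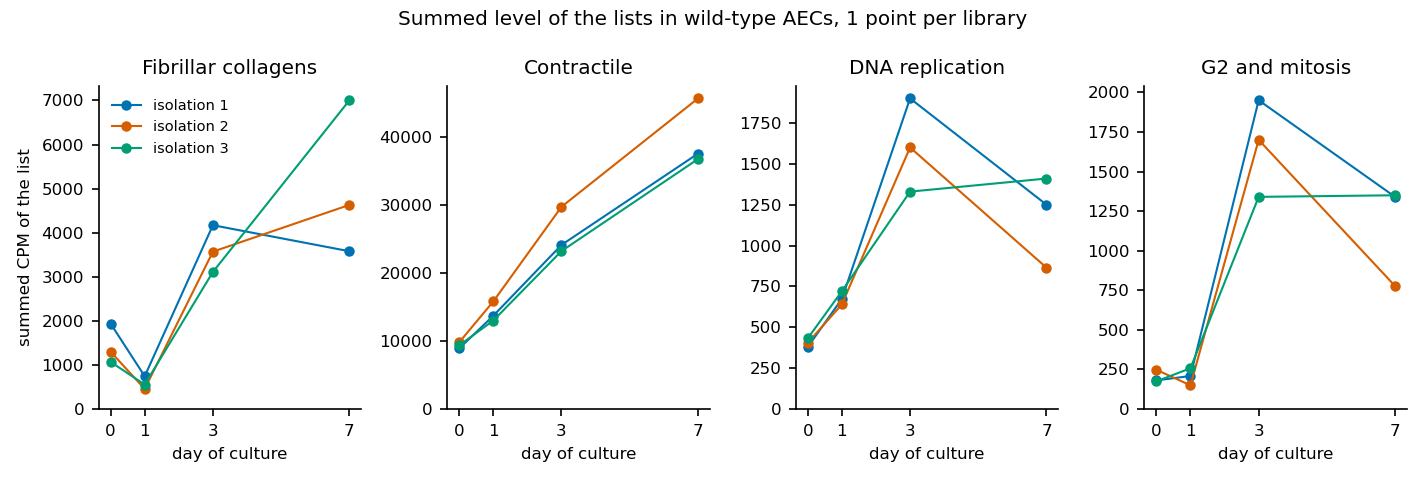
Summed CPM of 4 gene lists in the 12 wild-type libraries against the day of culture, with 1 line per isolation and axes from 0. Contractile genes rose in all 3 isolations between day 3 and day 7, collagens rose in isolations 2 and 3 and not in 1, and the cell cycle lists fell in isolations 1 and 2 and not in 3.

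Of 14 tested CDK inhibitors, cyclins and pocket proteins 3 rose and 1 fell, against 3.11% and 3.47% of all genes. The 3 D-type cyclins, which drive entry into the cycle, were those that rose: Ccnd1 from 198, 298 and 227 CPM to 468, 506 and 460 CPM (log2 fold change 0.99 ± 0.17, edgeR adjusted p = 0.000903), Ccnd2 2.05-fold and Ccnd3 1.47-fold. Rbl1, the pocket protein p107, fell 1.83-fold. Leaving out isolation 1 ended the call of Ccnd1 and Rbl1 (edgeR adjusted p = 0.0638 and 0.0734). Without isolation 2 the test was no longer passed by Ccnd2, Ccnd3 and Rbl1 (edgeR adjusted p = 0.0985, 0.136 and 0.242). The fit that left out isolation 3 made no call for Ccnd2 and Ccnd3 (edgeR adjusted p = 0.14 and 0.256). Cdkn1a, which encodes the p21 inhibitor, was at 457, 485 and 428 CPM and then at 697, 679 and 750 CPM without overlap, yet did not pass the test in the 24-library fit (log2 fold change 0.63, edgeR adjusted p = 0.114). In a fit of the 6 libraries alone its adjusted p was 0.0122. Cdk6 passed with the isolation as a block (edgeR adjusted p = 0.104 without and 0.015 with it). Cdkn2b, Cdkn1b, Cdkn1c, Cdkn2c, Cdkn2d, Cdk4, Rb1 and Rbl2 did not pass. Cdkn2a, whose transcripts encode p16 and p19, had 3 counts over the day 3 libraries and 26 over the day 7 libraries, a ratio of 10 with a 95% counting interval of 3.07 to 51.7 (exact binomial, counting error only), and was below the filter.

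Of 17 targets of p53, the stress-activated transcription factor, 9 rose, against 3.11% of all genes, and none fell. The median log2 fold change was 0.69, and 12 lay above without overlap, against 14.8% of all genes. Pmaip1, which encodes the proapoptotic protein NOXA, rose from 36.1, 66.0 and 37.0 CPM to 334, 693 and 355 CPM (log2 fold change 3.31 ± 0.42, edgeR adjusted p = 7.7e-05). Fas, the death receptor, rose from 7.22, 5.38 and 9.13 CPM to 17.1, 27.0 and 32.7 CPM, and Gdf15, a stress-induced cytokine, from 14.0, 11.5 and 14.7 CPM to 43.4, 45.0 and 51.3 CPM. Their fold changes were 3.53 and 3.47. Ccng1 (cyclin G1), Plk2 (a polo-like kinase) and Zmat3 (an RNA-binding protein) rose 1.73-, 1.66- and 1.97-fold. No call remained without isolation 1 for Ccng1 and Zmat3 (edgeR adjusted p = 0.094 and 0.293). Dropping isolation 2 removed the call of Ccng1, Fas, Plk2 and Zmat3 (edgeR adjusted p = 0.185, 0.103, 0.0731 and 0.131). With isolation 3 set aside, the threshold was missed by Plk2 and Zmat3 (edgeR adjusted p = 0.151 and 0.118). At day 1 the list had summed to 2520 to 3930 CPM, at day 3 to 1860 to 1940 CPM and at day 7 to 3030 to 3670 CPM, so the 3 day 7 values fell within the range of day 1. Trp53 itself was at 120 to 151 CPM and then at 131 to 181 CPM (edgeR adjusted p = 0.374).

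Of 23 TGF-β genes 3 rose, against 3.11% of all genes: Fstl3 and Fst, which encode binding proteins that neutralize activins, and the ligand Tgfb2. Fstl3 rose from 68.7, 86.7 and 90.6 CPM to 185, 243 and 227 CPM (log2 fold change 1.41 ± 0.19, edgeR adjusted p = 0.000109), and Fst and Tgfb2 rose 2.87- and 2.27-fold. Of 9 IGF genes 2 rose and 2 fell, against 3.11% and 3.47% of all genes. Igfbp7 rose 1.81-fold beside Igfbp2, whereas Igfbp4 fell from 113, 92.5 and 54.1 CPM to 27.3, 23.1 and 22.9 CPM (log2 fold change -1.82 ± 0.42, edgeR adjusted p = 0.00922) and Igfbp5 fell 2.98-fold. Of 16 regulators of epithelial-mesenchymal transition and cadherins, 1 fell, against 3.47% of all genes, the epithelial splicing factor Esrp2 (1.58-fold), and none rose. In the absence of isolation 1, no call was made for Esrp2, Fst, Igfbp4, Igfbp5, Igfbp7 and Tgfb2 (edgeR adjusted p = 0.0527, 0.123, 0.109, 0.197, 0.163 and 0.0794). If isolation 2 was omitted, the call was lost for Esrp2, Fst, Igfbp4, Igfbp5, Igfbp7 and Tgfb2 (edgeR adjusted p = 0.358, 0.108, 0.101, 0.365, 0.0568 and 0.12). Leaving out isolation 3 ended the call of Esrp2, Igfbp5 and Tgfb2 (edgeR adjusted p = 0.224, 0.0576 and 0.141).

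Of 18 tested chemokines and growth factors of myeloid cells 1 rose and 1 fell, against 3.11% and 3.47% of all genes. Csf3, which encodes granulocyte colony-stimulating factor, rose from 2.36, 3.11 and 3.01 CPM to 23.8, 24.1 and 14.1 CPM (log2 fold change 2.86 ± 0.41, edgeR adjusted p = 0.000205). Cxcl17, a mucosal chemokine, fell 10.6-fold. Ccl2, the monocyte chemoattractant, was at 35.6, 24.1 and 69.7 CPM and then at 17.2, 11.7 and 23.5 CPM, below without overlap but not past the threshold (log2 fold change -1.30 ± 0.52, edgeR adjusted p = 0.152). Of 20 interferon-stimulated genes 6 fell, against 3.47% of all genes, and none rose, with a median log2 fold change of -0.58. Ifit3, an antiviral effector, fell from 32.2, 28.7 and 23.0 CPM to 12, 3.23 and 3.18 CPM without overlap (log2 fold change -2.18 ± 0.52, edgeR adjusted p = 0.0124). Of 20 sterol synthesis genes 1 rose (Sc5d, 2.00-fold) and 1 fell (Pmvk, 1.58-fold), against 3.11% and 3.47% of all genes. The sterol list's median log2 fold change was 0.00309. Without isolation 1 the test was no longer passed by Pmvk and Sc5d (edgeR adjusted p = 0.109 and 0.157). The fit that left out isolation 2 made no call for Ifit3, Pmvk and Sc5d (edgeR adjusted p = 0.143, 0.155 and 0.0951). No call remained without isolation 3 for Ifit3 and Pmvk (edgeR adjusted p = 0.157 and 0.217).

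Genes of airway cells fell steeply. Of 8 club and ciliated cell markers 5 fell, against 3.47% of all genes, and none rose. The sum of the 8 markers went from 465, 1290 and 1040 CPM to 35.5, 37.7 and 26.8 CPM. Scgb1a1 (chr19:9083636-9087958, minus strand, GRCm38), the secretoglobin of club cells, fell from 374, 1220 and 970 CPM to 9.32, 14.5 and 12.9 CPM (log2 fold change -6.13 ± 0.55, edgeR adjusted p = 1.93e-06). Tppp3, a microtubule protein of ciliated cells, fell from 47.7, 33.6 and 40.1 CPM to 6.19, 4.73 and 5.97 CPM, and Foxj1, the master regulator of motile cilia, was at 32.0, 21.6 and 14.7 CPM and then at 18.4, 16.7 and 6.56 CPM (edgeR adjusted p = 0.506). Of 8 mesothelial markers 5 fell, against 3.47% of all genes. Among the 5 were Upk1b (a uroplakin, from 140, 80.4 and 74.9 CPM to 22.5, 14.9 and 19.2 CPM), Lrrn4 (from 104, 70.4 and 51.5 CPM to 7.35, 4.40 and 3.31 CPM), Wt1 and Bnc1. Msln, which encodes mesothelin, was at 634, 1120 and 819 CPM and then at 1540, 1870 and 983 CPM and did not pass (edgeR adjusted p = 0.366). Kdr, an endothelial receptor, fell from 15.7, 7.58 and 7.77 CPM to 1.23, 0.829 and 2.05 CPM. The part of a loss of airway or mesothelial cells in these falls was not tested. Dropping isolation 2 removed the call of Kdr, Upk1b and Wt1 (edgeR adjusted p = 0.0537, 0.052 and 0.156).

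The changes were also ranked by log2 fold change among called genes with a mean of at least 5 CPM on either day and the same direction in 3 isolations. Genes below that level could have larger fold changes and were not ranked. AI593442, Ugt2b36 (adjusted p = 0.265 in DESeq2) and Cyp4a12b had no count in the day 3 libraries, and with the 3 day 3 libraries together set to 3 counts they were at least 462-, 133- and 90.1-fold higher at day 7. AI593442 reached 9.94, 58.2 and 23.4 CPM. Lce1h, a late cornified envelope gene, had 2 counts at day 3 and 1233 at day 7, and Dgkk, a diacylglycerol kinase, rose from 0.656, 1.36 and 0.0567 CPM to 48.8, 122 and 37.3 CPM. The 12 largest rises of that ranking also held Uts2b, Gpr37, Plekhs1 and Krt20, each at or above 3.74 CPM in every day 7 library and under 0.5 CPM in every day 3 library. The 12 largest falls of that ranking held 3 genes of motile cilia or their assembly (Drc7, Cfap44 and Ccdc40), 2410004P03Rik, the chitinase Chia1 (693 counts and then 3), Cyp1a1, a cytochrome P450 (11.1, 33.0 and 17.5 CPM and then 0.0681, 0.415 and 0.994 CPM), the mast cell tryptase Tpsab1, Anxa10, Krtap1-5 and the unnamed gene ENSMUSG00000118462, beside Scgb1a1 and Lyz1. With isolation 1 set aside, the threshold was missed by Anxa10, Krt20 and Plekhs1 (edgeR adjusted p = 0.0571, 0.0697 and 0.0596). In the absence of isolation 2, no call was made for Anxa10, Cfap44, Cyp1a1, Gpr37 and Tpsab1 (edgeR adjusted p = 0.0593, 0.0632, 0.0656, 0.127 and 0.0735). If isolation 3 was omitted, the call was lost for Anxa10, Cyp1a1, Cyp4a12b and Ugt2b36 (edgeR adjusted p = 0.0729, 0.0565, 0.0502 and 0.0595).

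The same step in Krt8-/- AECs used other libraries with the same dates in their labels. In isolation 1 the genotypes differed in sex-linked genes. At day 3 and day 7, Y-linked genes summed to 176 and 173 CPM in its Krt8-/- libraries and to 0 CPM in its Krt8+/+ libraries. Xist was at 6.03 and 12 CPM in the former and at 62.4 and 79.2 CPM in the latter. Genotype and sex therefore cannot be told apart in isolation 1. There, 794 genes (4.40%) rose and 1109 (6.15%) fell. Of the 562 genes that rose in Krt8+/+ cells, 99.6% had the same sign in Krt8-/- cells and 417 (74.2%) were also called, which was 52.5% of the Krt8-/- rises. Of the 626 that fell, 99.7% had the same sign and 531 (84.8%) were also called, 47.9% of the Krt8-/- falls. Across the 18046 genes, which are not independent, the log2 fold changes of the genotypes had a Pearson r of 0.716 and a Spearman rho of 0.658. The test of the difference between the steps called 0 genes in edgeR and 0 in DESeq2, with 323 and 383 at an unadjusted p under 0.05. The 323 were 1.79% of the genes tested, below the share of 0.05 that uniform p-values would give. This test was therefore conservative, and its lack of calls does not show that the steps were the same.

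For the genes described above, the Krt8-/- log2 fold changes were 5.46 for Igfbp2, 3.65 for Cnn1, 2.7 for Acta2, 3.40 for Pmaip1 and -6.19 for Scgb1a1. Krt18 had a log2 fold change of 0.16 in Krt8-/- cells (edgeR adjusted p = 0.75) against 0.92 in Krt8+/+ cells, and Hopx had -0.68 (edgeR adjusted p = 0.033) against 0.06, and neither difference passed the test between the steps. In the Krt8-/- libraries 16 of 32 contractile genes and 5 of 26 fibrillar collagen genes rose, against 4.40% of all genes. No mitosis gene passed. The list medians were 0.67 for contractile genes, 0.89 for fibrillar collagens and -0.42 for mitosis, beside 0.56, 0.37 and -0.54 in Krt8+/+ cells.

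**Figure D5:**
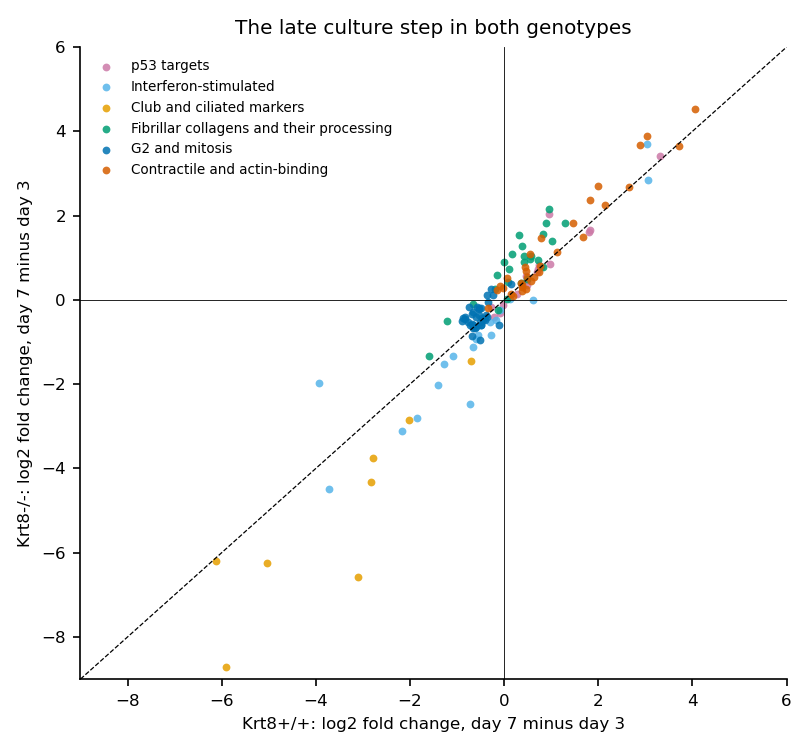
Log2 fold change between day 3 and day 7 in Krt8-/- AECs (vertical axis) against that in Krt8+/+ AECs (horizontal axis), with 1 point per gene of 6 lists and the line of equality dashed. Contractile and p53 points run along the line, airway markers lie at the lower left, and collagens lie mostly above the line.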

How the data were processed

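Bulk RNA was sequenced from the 24 libraries (3 isolations at each of 4 days in each of 2 genotypes). Each library's group came from its label, and its isolation number was inferred from the date there. The authors deposited 1 table of raw counts per gene, with 55426 entries. The submitters' processing notes name cutadapt 2.3, STAR 2.7.8a, RSEM 1.3.3 and the build GRCm38 without their roles, and counts from RSEM would be rounded estimates, whose error is not part of the tests. Symbols were found for 55154 of 55421 gene IDs, and 5 entries that name no gene held 0 counts.

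All 24 libraries were fitted in 1 model of 8 groups (edgeR 4.0.16 in R 4.3.3, quasi-likelihood F test, TMM scaling, 16 residual degrees of freedom) after filterByExpr (minimum count 10, minimum total 15), and p-values were Benjamini-Hochberg adjusted over 18046 genes with a threshold of 0.05. The SE was taken as the size of the log2 fold change divided by the square root of F. Counts set the precision, and intervals for low counts cover counting error only. Day 3 and day 7 libraries taken as the same isolation share a date in the labels. Their deviations from the group means correlated at 0.273, 0.107 and 0.297, against -0.296 to 0.0267 for other pairings, so the isolation was a block in an alternative. Other alternatives were DESeq2 1.42.0, its size factors, no filter, the compared libraries alone, and each isolation left out. The fit was tested on simulated data: of 198 genes changed in a simulated day 7 against day 3 wild-type comparison over 17584 genes, the test recovered 74.5% of changes of 4-fold and 38% of those of 2-fold, with 6 false calls. Promoters came from RefSeq (GRCm38.p6).

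The 34 gene lists (547 genes) and the genes to name were chosen with earlier results of these data known. Named were all members of the study's AEC1, transitional and basaloid lists and of the cell cycle inhibitor list, up to 6 called members per direction of each other list (same direction in 3 isolations, mean of at least 5 CPM), the 12 largest rises and falls by the same criteria, and Krt8, Acta2, Col1a1, Fn1, Mki67, Sftpc, Ager, Aqp5, Hopx, Ccl2 and markers of other cell types. Other genes are named as chosen after their values were seen. Some genes that this rule names are not reported here.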

Additional observations from a re-analysis of the deposited data

How the results depend on the processing

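The count of genes called between day 3 and day 7 was 1188, and it ranged from 325 to 572 with 1 isolation left out and from 1122 to 1758 over the other alternatives. Contractile calls numbered 7 to 10, AEC1 calls 2 to 3, DNA replication calls 0 to 1, and G2 and mitosis calls 0 to 1 with 1 isolation left out, where fewer samples enter the fit. For fibrillar collagens (0 calls), DESeq2 gave 1, no low-count filter 1, the 6 compared libraries alone 2, and those libraries with the isolation as a block 3. The DESeq2 call and the no-filter call were falls. The compared libraries alone gave 1 rise and 1 fall, and with the block they gave 2 rises and 1 fall. For DNA replication (1 call), DESeq2 gave 4, no filter 2, the block 2 and the compared libraries alone 0. For G2 and mitosis (0 calls), no filter gave 1, and the compared libraries alone gave 2 without and 2 with the block. The cause of these shifts was not tested. The difference between genotypes had 0 calls in every alternative. Of the 117 called genes among the 167 examined, 44 passed in every alternative and 73 were lost in at least 1, and no gene reversed. The fit of the 6 compared libraries alone ended 12 of those calls (Amotl1, Aqp5, Col4a4, Csrp1, Krt17, Krt18, Lgals3, Mcm4, Myl12a, Pmvk, Timp3 and Zmat3, edgeR adjusted p from 0.0548 to 0.0823) and gave calls to Atf3, Cdkn1a, Cdkn1c and Timp2. The isolation block raised the count of all calls to 1490, of which 1173 were shared with the 1188, gave calls to Krt7, Tpm4 and Cdk6, and changed no other call among the examined genes. Depth limits genes with few counts such as Cdkn2a and S100a2, which were below the filter.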

Other observations

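Several abundant genes outside the lists changed without overlap between days, and they were chosen after their values were seen. Bex3 rose from 72.1, 82.2 and 89.1 CPM to 359, 579 and 403 CPM (log2 fold change 2.46 ± 0.22, edgeR adjusted p = 1.93e-06), and Prnd, which encodes the prion-like protein doppel, rose from 43.3, 66.6 and 61.7 CPM to 305, 627 and 360 CPM. Mcam, an adhesion molecule also known as CD146, rose from 68.6, 151 and 110 CPM to 442, 671 and 583 CPM. Tgm2, a transglutaminase that crosslinks matrix proteins, rose from 374, 503 and 398 CPM to 1090, 1760 and 1280 CPM, with an edgeR adjusted p of 0.00215 that was 0.0654 without isolation 2. Sox9, a transcription factor of distal lung progenitors, rose from 14.4, 15.8 and 11.9 CPM to 68.7, 93.0 and 53.1 CPM.

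Among genes that fell, Areg, which encodes the EGF receptor ligand amphiregulin, went from 171, 221 and 175 CPM to 59.2, 28.7 and 21.9 CPM (log2 fold change -2.37, edgeR adjusted p = 0.00022, and 0.0583 without isolation 2). Foxq1, a forkhead transcription factor, went from 118, 166 and 134 CPM to 40.6, 26.5 and 20.5 CPM. Slc6a14, an amino acid transporter, went from 578, 943 and 928 CPM to 259, 289 and 378 CPM, and Neat1, a nuclear long noncoding RNA, from 403, 381 and 554 CPM to 181, 101 and 160 CPM.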
